A study of Mus musculus with 20 samples.

Results

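The 6 blood stem cell regulators Mecom, Hlf, Erg, Mllt3, Msi2 and Hmga2 were followed across 10 mouse blood cell types. They were taken as a named group of transcription and RNA-binding regulators, and every probe set that the array annotation assigns to 1 of them was kept, which gave 22 of the 45101 probe sets on the array and 6 of 18193 genes. A probe set is a group of short oligonucleotides on the array that reads out 1 transcript or a set of related ones. Of the 22 probe sets, 12 had a log2 value above 5 on at least 2 of the 20 arrays and were tested, as were 18726 probe sets of the whole array. Mecom had 1 tested probe set of 3, Hlf 2 of 2, Erg 1 of 2, Mllt3 3 of 3, Msi2 3 of 8 and Hmga2 2 of 4.

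Cells came from wild-type female C57Bl/6 mice (CD45.1, 12 to 14 weeks old), and no group carried a mutation or transgene. Long-term hematopoietic stem cells (LT-HSC, titled SPKSL in the labels) were set against nucleated erythrocytes, activated CD4 T cells, naive CD4 T cells, activated CD8 T cells, naive CD8 T cells, NK cells, B cells, monocytes and granulocytes, each sorted by flow cytometry and measured on 2 arrays. Each array held RNA from 4 pooled samples, 25000 to 50000 sorted cells gave the RNA, and it went through 2 rounds of linear amplification. Activated T cells are labelled as treated with LPS, the other 8 types carry no treatment label, and how each type was gated is not stated in the labels. All expression values are log2 GCRMA values, so a difference of 1 is a change of 2-fold, and levels are compared within a probe set only.

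Mecom (also called Evi1), Hlf and Erg encode DNA-binding transcription factors that keep stem cells self-renewing. Mecom is a zinc finger protein whose long form carries a PR domain, Hlf is a PAR bZIP factor, and Erg is an ETS factor that binds together with Tal1, Lmo2, Runx1 and Gata2. Mllt3 (AF9) is a chromatin reader that links acetylated histones to the super elongation complex and to the methyltransferase Dot1l, Msi2 (Musashi 2) binds mRNAs and alters their translation, and Hmga2 is an architectural chromatin protein of the AT-hook class that let-7 microRNAs repress. Translocations of Mecom, Erg, Hlf and Mllt3 occur in human leukemias.

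Marker lists for stem cells, NK cells, T cells, CD8 T cells, T cell activation, B cells, monocytes, granulocytes and erythroid cells averaged highest in types so labelled, with exceptions. The CD4 label could not be checked by its markers: Cd4 and Cd40lg stayed below 5 in all types and Zbtb7b was highest in monocytes, although Cd8a averaged 5.45 in activated CD4 T cells, far below its 12.67 in activated CD8 T cells. Mki67, a proliferation gene of the activation list, was lower in activated than in naive CD4 T cells (9.34 and 11.94), and the monocyte markers Ccr2 and Ly86 were highest in NK cells and B cells. Array medians lay between 3.08 and 3.27, the paired arrays of a cell type correlated at 0.926 to 0.986 across probe sets, and 12897 to 14392 probe sets an array exceeded 5. In LT-HSC, 7 and 8 of 9 stem cell markers exceeded 5 on arrays 1 and 2, Slamf1 among the low ones at 4.38 and 5.01. Flt3 and Cd34, genes linked to multipotent progenitors, averaged 8.36 and 11.47 there, and Cd48 was at 2.65. Of 13 endothelial markers only Tek, Esam and Egfl7 averaged above 5 there, genes that stem cells are known to share, while Cdh5, Kdr, Pecam1 and Sox17 stayed between 2 and 2.4. 6 arrays, all 4 of activated T cells and array 1 of both naive groups, carried Y-linked transcripts although all mice are labelled female. The nucleated erythrocyte arrays held granulocyte transcripts and the granulocyte arrays held erythroid ones, with values given beside Erg. In sorted bulk samples fewer expressing cells and less RNA per cell cannot be told apart.

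Across the 6 genes, 3 patterns of level were seen. Mecom, Hlf and Hmga2 were high in LT-HSC and near the lowest level or flat in all 9 other types. Erg was high in LT-HSC and in granulocytes, with overlapping arrays, and intermediate in nucleated erythrocytes. Mllt3 and the brighter probe sets of Msi2 were high in LT-HSC but also well measured in T cells, and lowest in monocytes and granulocytes.

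**Figure D1:**
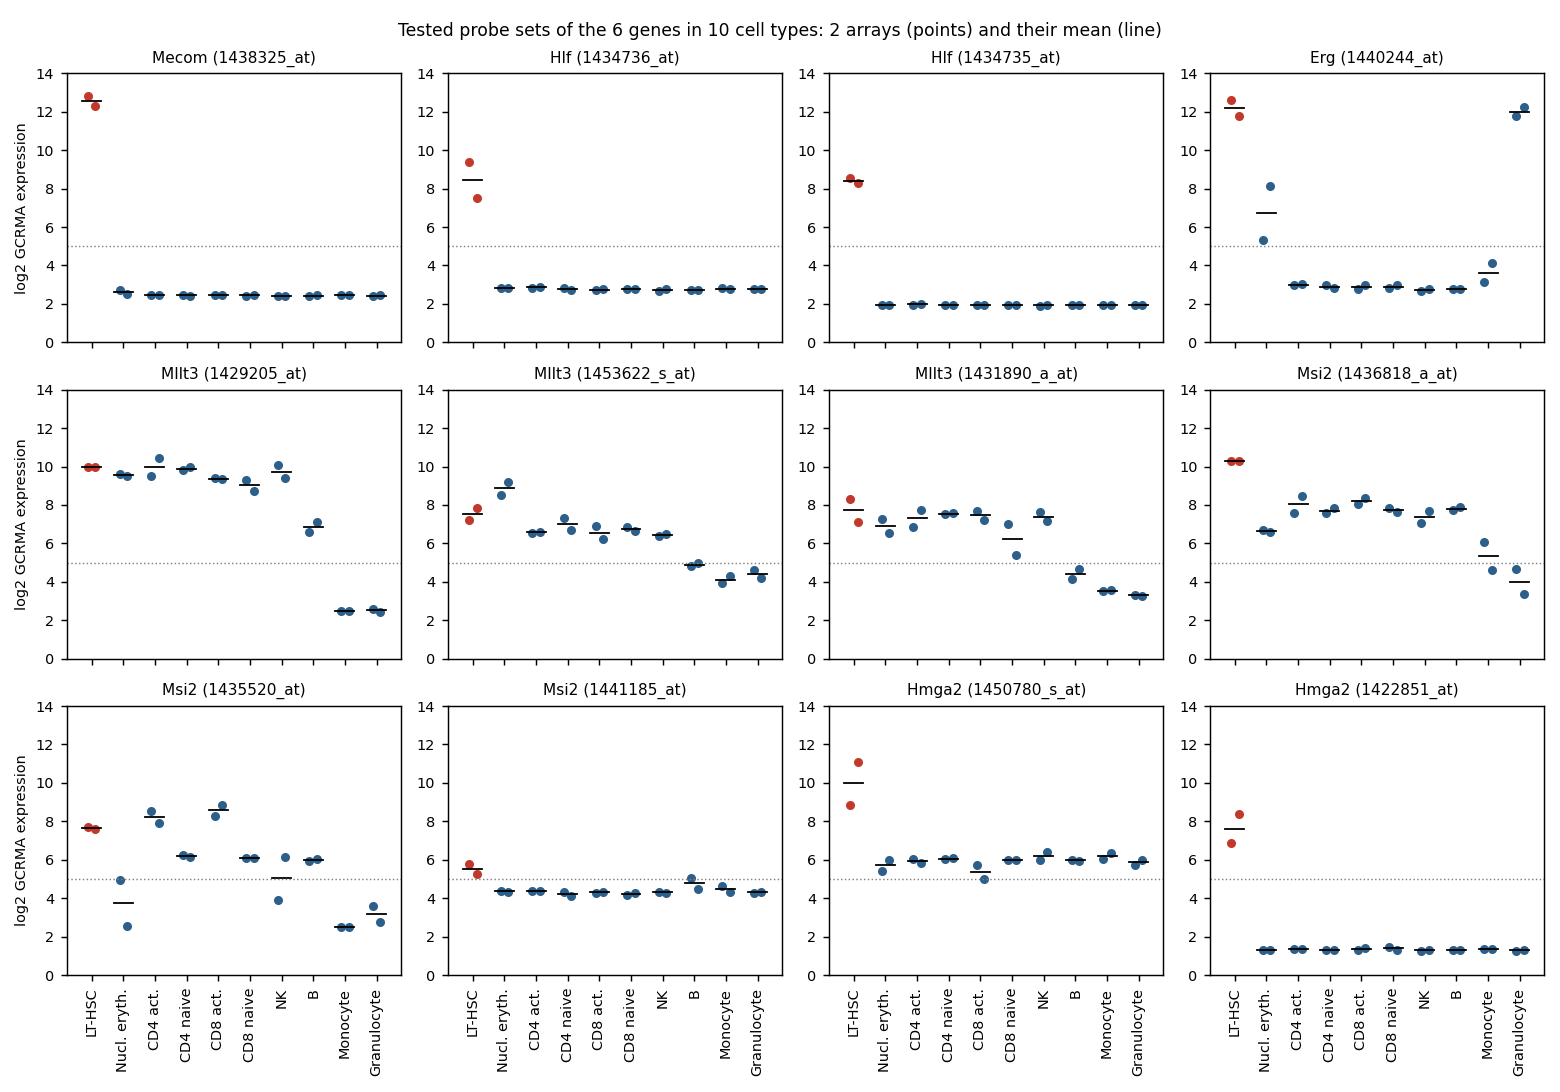
Each panel plots 1 tested probe set; the vertical axis is log2 GCRMA expression and the horizontal axis the 10 cell types, with 2 arrays as points (LT-HSC in red), their mean as a line and the level of 5 dotted. Mecom, Hlf and Hmga2 stand high in LT-HSC only, Erg in LT-HSC and granulocytes (mean 12.19 and 11.99), and Mllt3 and the first 2 Msi2 probe sets are lowest in the myeloid types, a step that 1441185_at of Msi2 does not show.

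Mecom had the largest difference of the group. Its tested probe set, 1438325_at, read 12.79 and 12.32 in LT-HSC, against 2.39 to 2.72 with a median of 2.44 on the 18 other arrays. The stem cell arrays stood apart from all others and no other type rose above its neighbours: the 9 other means ran in order from 2.61 in nucleated erythrocytes to 2.41 in NK cells, and no adjacent pair among them differed beyond the test. LT-HSC minus the mean of the other 9 types was 10.09 ± 0.15 on the log2 scale (SE; limma, adjusted p = 3.77e-14). The smallest of the 9 single differences, against nucleated erythrocytes, was 9.95 ± 0.20 (limma, adjusted p = 1.03e-12). This probe set was tested through the LT-HSC arrays alone and so had to differ, which makes both p-values descriptions. Since the other types lie below 5, the level needed for a test, values below 5 were also raised to 5, which left a difference of 7.56. The other Mecom probe sets did not show this difference: 1423011_at read 2.87 to 3.24 and 1422295_at 2.17 to 2.44 over all 20 arrays, LT-HSC included. The Mecom result thus rests on 1438325_at alone. The annotation lists no source transcript for it, but does list one for each of the others. The gene lies at chr3:29951296-30509759 of GRCm38.p6.

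Hlf behaved alike on both of its probe sets. 1434735_at read 8.55 and 8.28 in LT-HSC, against 1.90 to 1.98 elsewhere. 1434736_at read 9.36 and 7.5 in LT-HSC, against 2.69 to 2.87 elsewhere. The stem cell arrays were clear of all 18 others on both, although array 2 was 1.86 lower than array 1 on the second of them. LT-HSC exceeded the mean of the other types by 6.47 ± 0.13 on 1434735_at (SE; limma, adjusted p = 4.07e-13) and by 5.65 ± 0.30 on 1434736_at (limma, adjusted p = 5.77e-09). With values below 5 raised to 5 these were 3.42 and 3.43. Both Hlf probe sets were tested through the LT-HSC arrays alone, so their p-values are descriptions too. The SE uses 1 spread shared by all 10 types. On 1434736_at the SD between arrays was 1.315 in LT-HSC and at most 0.049 in the other types. Nothing separated the 9 other types, whose means spanned 1.92 to 1.98 and 2.73 to 2.86. Hlf lies at chr11:90336535-90390917 of GRCm38.p6.

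Hmga2, a gene of fetal stem cells, was also measured in these adult LT-HSC. Probe set 1422851_at read 6.89 and 8.36 in LT-HSC, against 1.27 to 1.48 on all other arrays. It too was tested through the LT-HSC arrays alone, so its p-value is a description. Probe set 1450780_s_at read 8.87 and 11.08 in LT-HSC, against 5 to 6.39, with a median of 6, on the other 18. On both, array 2 of LT-HSC was well above array 1, by 1.47 and 2.21, so the level in stem cells is known less well than its place above the other types. The differences from the mean of the other types were 6.30 ± 0.25 for 1422851_at (SE; limma, adjusted p = 2.82e-10), or 2.63 with values below 5 raised to 5, and 4.05 ± 0.38 for 1450780_s_at (limma, adjusted p = 1.90e-06). Leaving out 1 LT-HSC array moved the last value between 2.95 (array 2 left out) and 5.16 (array 1 left out). The same array 2 carried more platelet and megakaryocyte signal, with a mean over 9 markers of 6.63 against 5.54 on array 1 and 5 and 4 markers above 5; Ppbp read 9.24 and 2.99 on arrays 2 and 1, Gp9 stayed at 1.79 and 1.77, and Vwf (9.23 and 10.14) and Nfe2 (8.35 and 9.37) ran the other way. Their part in the Hmga2 level was not tested. Probe sets 1446196_at and 1450781_at read 2.42 to 2.57 and 1.89 to 2.00 on all arrays. Hmga2 lies at chr10:120361268-120476469 of GRCm38.p6.

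A separate locus on chromosome 1, the pseudogene Hmga2-ps1, was not a member but shares the gene's name, and its probe set showed another pattern. 1440559_at read 8.83 and 8.21 in granulocytes, 7.39 and 8.03 in monocytes, and 2.59 and 2.66 in LT-HSC. Neither Hmga2 probe set was raised in the myeloid types.

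Of the 12 tested probe sets, 4 (1438325_at of Mecom, both of Hlf and 1422851_at of Hmga2) passed the filter on low values through the LT-HSC arrays alone and so had to differ. 1441185_at of Msi2 had 1 other array above 5 and so also needed an LT-HSC array to pass. For that reason the count of 12 of 12 tested probe sets called higher in LT-HSC (limma; a call needs an adjusted p under 0.05 together with a log2 change no smaller than 1), where 20.0% of all tested probe sets were called higher and 38.5% in either direction, is given as a description. The members' median difference was 3.67, beside -0.12 over all tested probe sets. On 7 of the 12, both LT-HSC arrays lay above all 18 others, as they did on 7.73% of all tested probe sets. In the stricter test, which takes the weakest of the 9 single comparisons, 6 of 12 were called (Mecom, both of Hlf, both of Hmga2 and 1436818_a_at of Msi2), with 3.79% called over the array. The 4 probe sets that passed the filter through LT-HSC alone are among both the 7 and the 6, and 1441185_at is among the 7, so these counts are descriptions too.

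Set against single types, LT-HSC were higher on 8 to 12 of the 12 probe sets, and these counts run with shares of the array that are themselves large. LT-HSC were higher on 9 and lower on 1 against nucleated erythrocytes (49.2% of all probe sets called in either direction). Against T cells they were higher on 8 for activated CD4 (46.1%), 8 for naive CD4 (34.7%), 8 for activated CD8 (48.6%) and 9 for naive CD8 (38.8%). They were higher on 10 against NK cells (33.4%), 10 against B cells (35.1%), 12 against monocytes (49.5%) and 11 against granulocytes (49.1%).

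**Figure D2:**
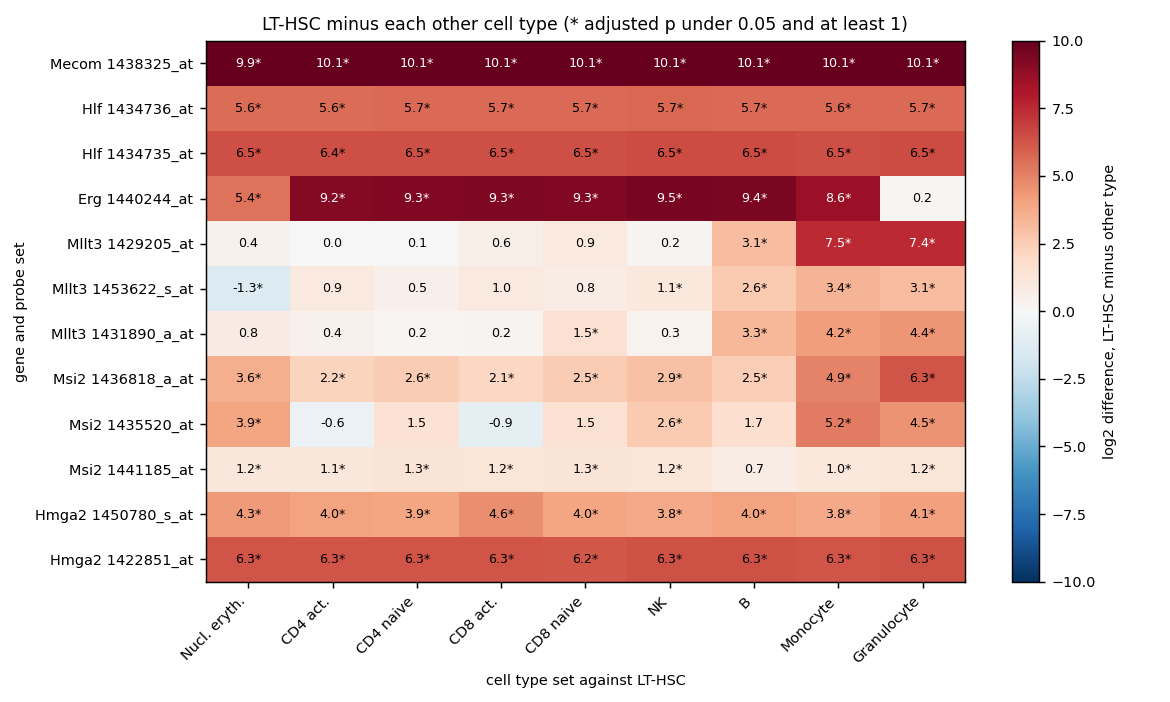
Cells give the log2 difference of LT-HSC minus each of the 9 other cell types (columns) for the 12 tested probe sets (rows); red is higher in LT-HSC, blue lower, and a star marks adjusted p under 0.05 with a difference of at least 1. Rows for Mecom, Hlf and Hmga2 are starred throughout, Erg lacks a star only against granulocytes, and 1453622_s_at of Mllt3 is lower in LT-HSC than in nucleated erythrocytes.

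The promoters of the genes with the highest specificity were read for sequence features, since these genes share LT-HSC as their single high type. The windows come from RefSeq (GRCm38.p6), span 250 bases before to 50 bases after each start site, and are all on the minus strand; all 6 genes matched, with 12 start sites. CpG dinucleotides are in capitals. Mecom start site 1 is at chr3:30509710-30510009, Mecom start site 2 at chr3:30013155-30013454, Hlf at chr11:90390868-90391167 and Hmga2 at chr10:120476420-120476719.
Mecom start site 1: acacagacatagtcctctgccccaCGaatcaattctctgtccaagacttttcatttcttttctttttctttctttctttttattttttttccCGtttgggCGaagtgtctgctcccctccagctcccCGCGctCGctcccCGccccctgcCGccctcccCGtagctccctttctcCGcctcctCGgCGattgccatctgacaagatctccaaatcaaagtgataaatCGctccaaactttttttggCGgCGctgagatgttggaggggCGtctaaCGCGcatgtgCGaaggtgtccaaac
Mecom start site 2: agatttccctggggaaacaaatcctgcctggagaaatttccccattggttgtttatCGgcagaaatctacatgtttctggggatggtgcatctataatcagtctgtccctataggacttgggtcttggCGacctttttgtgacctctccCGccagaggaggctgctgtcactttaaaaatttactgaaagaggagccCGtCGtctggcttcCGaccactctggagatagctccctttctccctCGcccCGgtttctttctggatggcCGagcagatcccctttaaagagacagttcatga
Hlf: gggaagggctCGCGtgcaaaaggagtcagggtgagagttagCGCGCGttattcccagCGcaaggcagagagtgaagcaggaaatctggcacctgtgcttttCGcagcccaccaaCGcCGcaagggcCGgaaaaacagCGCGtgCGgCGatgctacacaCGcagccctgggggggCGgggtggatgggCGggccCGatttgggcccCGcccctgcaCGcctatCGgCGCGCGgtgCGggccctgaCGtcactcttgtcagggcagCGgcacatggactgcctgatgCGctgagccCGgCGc
Hmga2: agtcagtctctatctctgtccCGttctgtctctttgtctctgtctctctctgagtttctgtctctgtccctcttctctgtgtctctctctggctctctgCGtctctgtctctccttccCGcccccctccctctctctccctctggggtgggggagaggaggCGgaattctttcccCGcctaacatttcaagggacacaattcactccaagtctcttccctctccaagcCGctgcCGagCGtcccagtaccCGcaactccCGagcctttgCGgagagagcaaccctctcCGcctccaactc

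The CpG counts of these windows overlapped between genes of the stem cell pattern and those of the broad one. The windows held 19 and 9 CpGs for Mecom, 30 for Hlf and 12 for Hmga2, beside a median of 7 over 32851 mouse promoters. Msi2 and Mllt3, which are widely expressed, had 37 to 39 CpGs at the 3 Msi2 start sites and 29 and 4 at the 2 Mllt3 sites. Erg had 16, 2 and 4 at its 3 sites. The motifs searched were these letters: the ETS core GGAAGT, found in 23.8% of all promoters, the GATA site AGATAA in 11.2%, the PAR bZIP site TTANGTAA in 2.32% and the RUNX site TGTGGT in 16.8%, each on both strands, and TATAAA on the sense strand in 8.32%. The single match in the 12 windows was a GATA site at Erg start site 3 (chr16:95459299-95459598), which describes these windows only.

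Erg was not confined to stem cells. Probe set 1440244_at read 12.62 and 11.76 in LT-HSC, 5.35 and 8.15 in nucleated erythrocytes, 3.15 and 4.11 in monocytes, 11.76 and 12.22 in granulocytes, and 2.68 to 3.02 on the 12 lymphoid arrays. LT-HSC and granulocytes overlapped, and both stood far above the rest. LT-HSC minus granulocytes was 0.20 ± 0.64 (SE; limma, adjusted p = 0.85). Granulocytes exceeded nucleated erythrocytes by 5.24 ± 0.64 (limma, adjusted p = 1.15e-05; 49.2% of the array called), and these exceeded monocytes by 3.12 ± 0.64 (limma, adjusted p = 9.17e-04; 50.6% called). Below monocytes no adjacent pair differed beyond the test. LT-HSC stood 7.79 ± 0.48 above the mean of the other 9 types (limma, adjusted p = 2.52e-08). The second Erg probe set, 1425370_a_at, read 2.33 to 2.51 on every array, granulocytes and LT-HSC included. Erg lies at chr16:95359169-95586600 of GRCm38.p6.

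The high Erg signal in granulocytes came without signal for Mecom, Hlf or most stem cell markers. In granulocytes Mecom read 2.41 and 2.45, Hlf 1434735_at read 1.92 and 1.94, and 1 of 9 stem cell markers exceeded 5, Kit, at 7.42 and 7.02. Procr was at 2.93 and 2.89 and Fgd5 at 2.64 and 2.71 there. Defining granulocyte genes were high, with a mean over 7 markers of 14.47 and 14.72. Mpo, a gene of immature granulocytes, read 12.77 and 11.97 in granulocytes, while Elane, of the same list of progenitor markers, averaged only 4.315 there.

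In nucleated erythrocytes the Erg level went with granulocyte transcripts. Array 2, with Erg at 8.15, had a granulocyte marker mean of 12.31, against 11.13 on array 1 with Erg at 5.35; 6 of 7 markers exceeded 5 on both, Cxcr2 staying at 2.72 and 2.73, and Mpo read 11.15 on array 2 and 10.02 on array 1. Monocytes, whose granulocyte marker mean was 11.47 and 11.49, had Erg at 3.15 and 4.11 and Mpo at 2.13 on both arrays. Unlike Mpo, Elane was low in both types, with means of 2.465 in nucleated erythrocytes and 2.145 in monocytes. The erythroid marker mean was 15.28 and 15.35 in nucleated erythrocytes and 10.38 and 8.24 in granulocytes. The part of granulocyte transcripts in the erythrocyte value was not tested. Nucleated erythrocytes exceeded the mean of the 8 other mature types by 2.65 ± 0.48 (limma, adjusted p = 3.16e-04), a value that lay between 1.25 and 4.05 when either erythrocyte array was left out, and that became 0.88 (limma, adjusted p = 0.125) with values below 5 raised to 5.

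**Figure D3:**
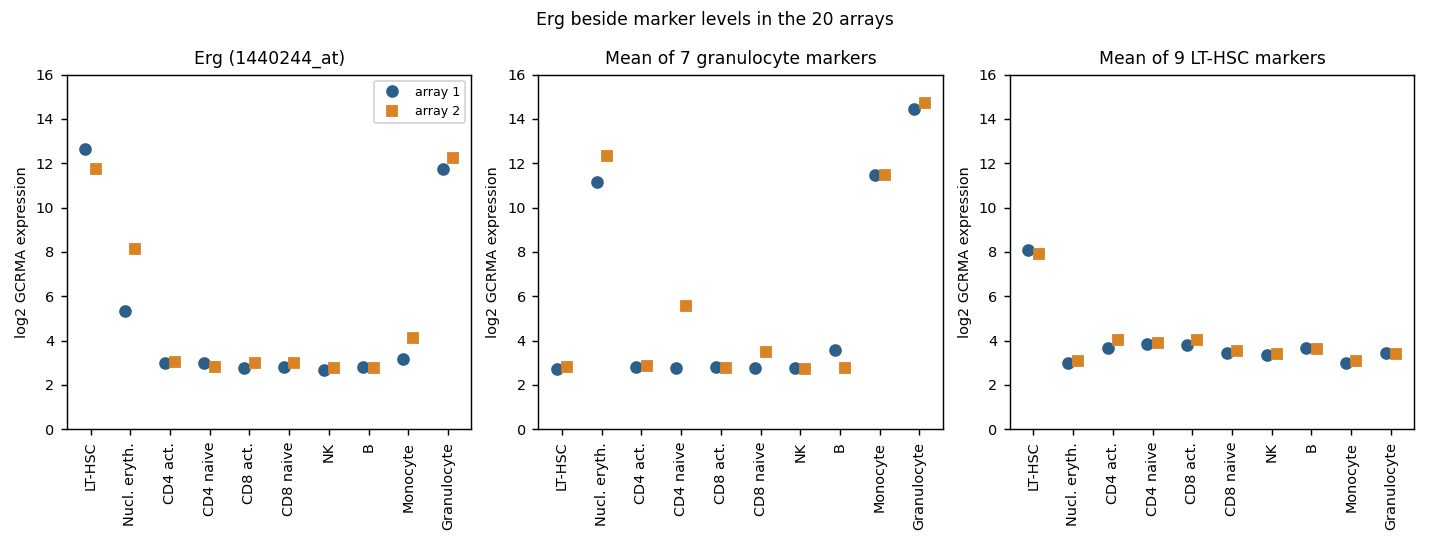
Log2 GCRMA expression on the 2 arrays of each cell type for Erg (left), the mean of 7 granulocyte markers (middle) and the mean of 9 stem cell markers (right). Granulocyte arrays overlap LT-HSC for Erg but not for stem cell markers, and array 2 of nucleated erythrocytes is above array 1 for both Erg (8.15 and 5.35) and granulocyte markers (12.31 and 11.13).

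Mllt3 was high in LT-HSC, nucleated erythrocytes, T cells and NK cells and low in monocytes and granulocytes, while the B cell level depended on the probe set. On 1429205_at LT-HSC read 9.97 and 9.96, the 4 T cell groups, NK cells and nucleated erythrocytes had means of 9.02 to 9.98, B cells read 6.59 and 7.14, monocytes 2.48 and 2.50, and granulocytes 2.59 and 2.46. From activated CD4 T cells down to naive CD8 T cells no adjacent pair differed beyond the test, LT-HSC among them. Naive CD8 T cells exceeded B cells by 2.15 ± 0.32 (SE; limma, adjusted p = 3.53e-04; 15.2% of the array called), and B cells exceeded granulocytes by 4.34 ± 0.32 (limma, adjusted p = 1.77e-07; 44.2% called). The mean of the 6 lymphoid types exceeded that of the 2 myeloid types by 6.63 ± 0.19 (limma, adjusted p = 5.15e-12), or 4.14 with values below 5 raised to 5, since both myeloid types lay below 5. LT-HSC exceeded the mean of the other 9 types by 2.25 ± 0.24 (limma, adjusted p = 5.77e-06), a mean that the 2 myeloid types pull down. Mllt3 lies at chr4:87769925-88033407 of GRCm38.p6.

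The other Mllt3 probe sets were also lowest in monocytes and granulocytes but differed from the first in B cells and in the erythroid level. B cells lay below 5, at 4.83 and 4.97 on 1453622_s_at and at 4.16 and 4.65 on 1431890_a_at. They were not called above granulocytes on the first (0.48 ± 0.33; limma, adjusted p = 0.26) or above monocytes on the second (0.85 ± 0.51; limma, adjusted p = 0.186), whereas NK cells exceeded B cells by 1.55 ± 0.33 on 1453622_s_at (limma, adjusted p = 0.00476) and naive CD8 T cells exceeded them by 1.80 ± 0.51 on 1431890_a_at (limma, adjusted p = 0.0275). On 1453622_s_at nucleated erythrocytes were the highest type, at 8.51 and 9.22, with LT-HSC at 7.22 and 7.82. Nucleated erythrocytes exceeded LT-HSC by 1.35 ± 0.33 (limma, adjusted p = 0.00375) and the mean of the 8 other mature types by 3.02 ± 0.25 (limma, adjusted p = 2.38e-07). On 1431890_a_at nucleated erythrocytes read 7.27 and 6.56 and LT-HSC 8.31 and 7.13, with overlap. There the erythrocyte difference from the other mature types was 1.02 ± 0.38 (limma, adjusted p = 0.0337), a call lost in 10 of 31 alternatives and at 0.66 without erythrocyte array 1. The LT-HSC difference from the other 9 types was 1.34 ± 0.25 on 1453622_s_at (limma, adjusted p = 6.23e-04) and 1.71 ± 0.38 on 1431890_a_at (limma, adjusted p = 0.00226), and the last became 1.12 (limma, adjusted p = 0.0963) without LT-HSC array 1. Lymphoid types exceeded myeloid types by 2.11 ± 0.19 and 3.29 ± 0.29 on these probe sets, or 1.39 and 1.82 with values below 5 raised to 5. Over the 10 means the 3 Mllt3 probe sets correlated at 0.835 to 0.954, points that share the same arrays.

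Msi2 was highest in LT-HSC on the probe set with its strongest signal. 1436818_a_at read 10.27 and 10.28 in LT-HSC, against 3.35 to 8.46 on the other 18 arrays. LT-HSC were clear of every other type, lymphocytes formed a middle group and myeloid cells the lowest. The means ran from activated CD8 T cells at 8.20 through activated CD4 T cells at 8.03, B cells at 7.81, naive CD8 T cells at 7.74, naive CD4 T cells at 7.70 and NK cells at 7.38 to nucleated erythrocytes at 6.63, monocytes at 5.34 and granulocytes at 4.00, and the only adjacent mature pair that passed was nucleated erythrocytes over monocytes (1.29 ± 0.48; limma, adjusted p = 0.0376). LT-HSC exceeded the mean of the other 9 types by 3.29 ± 0.36 (SE; limma, adjusted p = 7.48e-06). The smallest single difference, against activated CD8 T cells, was 2.08 ± 0.48 (limma, adjusted p = 0.0144), and this call was lost without either LT-HSC array, without activated CD4 array 1 or without either activated CD8 array (adjusted p 0.0508 to 0.209). Lymphoid types exceeded myeloid types by 3.14 ± 0.28 (limma, adjusted p = 3.27e-07). Msi2 lies at chr11:88339382-88718306 of GRCm38.p6.

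Another Msi2 probe set, 1435520_at, placed activated T cells at the top. It read 7.69 and 7.63 in LT-HSC, 8.54 and 7.93 in activated CD4 T cells, 6.25 and 6.15 in naive CD4 T cells, 8.29 and 8.86 in activated CD8 T cells and 6.12 and 6.11 in naive CD8 T cells. Activated and naive arrays did not overlap in either lineage. Activated CD4 T cells exceeded naive ones by 2.04 ± 0.71 (SE; limma, adjusted p = 0.0419) and activated CD8 T cells exceeded naive ones by 2.46 ± 0.71 (limma, adjusted p = 0.0181). These were the only activation calls among the 12 tested probe sets, where 30.1% (CD4) and 28.4% (CD8) of all probe sets were called. Array 2 of naive CD4 T cells had a granulocyte marker mean of 5.54, against 2.77 on array 1. A control probe set for the 5-prime end of Gapdh read 7.42 to 8.81 on activated T cell arrays and 3.89 to 4.45 on naive ones. Its 3-prime counterpart read 14.66 to 15.08 and 13.07 to 13.58. The relation of these controls to the Msi2 difference was not tested. Without the array 2 of both naive groups, which lack Y-linked transcripts, the differences were 1.98 (adjusted p = 0.158) and 2.46 (adjusted p = 0.0903), and the CD4 call was lost in 17 of 32 alternatives and the CD8 call in 5 of 32. The activation effects of the CD4 and CD8 lineages differed by -0.42 ± 1.00, which was not called, as for all 12 member probe sets; 0.513% of all probe sets were called. On 1436818_a_at the activation differences were 0.33 ± 0.48 in CD4 and 0.46 ± 0.48 in CD8 T cells, neither called.

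Outside T cells 1435520_at was lower. B cells read 5.92 and 6.04, NK cells 3.92 and 6.15, nucleated erythrocytes 4.95 and 2.54, granulocytes 3.62 and 2.76, and monocytes 2.50 and 2.50. NK cell and erythrocyte arrays disagreed with each other by more than 2 log2 units. LT-HSC exceeded the mean of the other 9 types by 2.15 ± 0.53 (limma, adjusted p = 0.00433). Nucleated erythrocytes minus the mean of the 8 other mature types was -1.98 ± 0.53 (limma, adjusted p = 0.00543), but -0.78 (adjusted p = 0.286) without erythrocyte array 2. The third tested probe set, 1441185_at, was dim, at 5.78 and 5.25 in LT-HSC against 4.14 to 5.07, and its difference of 1.14 ± 0.18 (limma, adjusted p = 1.81e-04) was 0.87 without LT-HSC array 1, 0.85 under quantile normalization and 0.51 with values below 5 raised to 5, each under the size a call needs. It needed an LT-HSC array to pass the filter, so its p-value is a description. The 5 untested Msi2 probe sets read 0.75 to 5. Among them 1435521_at read 4.95 and 4.37 in LT-HSC, with its highest value, 5, on naive CD8 array 1. 1421230_a_at read 4.38 and 4.73 in activated CD4 T cells, 4.14 and 4.79 in activated CD8 T cells and 1.93 to 3.17 in all other types. None of these values exceeds 5, so none was tested, and their order may not be reliable. Over the 10 means 1436818_a_at and 1435520_at correlated at 0.827, and 1435520_at and 1441185_at at 0.242.

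Among the 9 mature types, then, 6 of the 12 tested probe sets varied (moderated F-test, 87.4% called over the array): Erg, the 3 of Mllt3 and 2 of Msi2. The lymphoid over myeloid comparison called 5 of the 12 higher, the 3 of Mllt3 and 2 of Msi2, and 1 lower, with 30.9% called higher, 21.2% lower and 52.1% in all over the array. The lower one was Erg, at -4.94 ± 0.37 (limma, adjusted p = 5.81e-08), which was -0.76 (adjusted p = 0.212) without the granulocyte arrays. Nucleated erythrocytes differed from the other mature types on 5 of 12, Erg and the 3 of Mllt3 higher and 1435520_at of Msi2 lower, beside 19.2% called higher, 32.0% called lower and 51.3% in all over the array.

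For each regulator the 5 genes with the highest Pearson correlation over the 10 cell type means were taken, so they share its pattern by that choice. For Mecom they were Col4a2, AI661453, Ctf1, Slc18b1 and Fgd5, and for Hlf Unc45b, Msrb3, Mmrn1, Btbd3 and Mir99ahg, all with r above 0.999, a figure set by 1 high type: 129 genes exceeded 0.99 with either regulator. For Erg they were Ctdspl (r = 0.996), the granule protease gene Prtn3 (0.969), Trim16 (0.95), Phldb2 (0.947) and Lbp (0.942). Ctdspl had means of 8.71 in LT-HSC and 8.27 in granulocytes, and Prtn3 of 8.22 and 7.31, while Phldb2 (6.99 and 7.89) and Lbp (7.55 and 11.12) were higher in granulocytes. For Mllt3 they were Mta1 (0.981), Drosha (0.961), Rif1 (0.954), Dhx9 (0.953) and Fubp3 (0.947). For Msi2 they were Gas5 (0.975), Ints6 (0.973), Zbtb41 (0.960), Nmt2 (0.955) and Ciao1 (0.946), and for Hmga2 Gm11772, Fzd6, Firre, Kank2 and Chad (0.985 to 0.988).

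Between the regulators themselves, Mecom and Hmga2 correlated at 0.981 over the 10 means and Mllt3 and Msi2 at 0.807. Without LT-HSC the first pair was at -0.32 and the second at 0.863, so the first rests on LT-HSC alone and the second on the mature types too. Erg and Msi2 correlated at -0.112 with LT-HSC and -0.836 without. These are descriptions over 10 or 9 cell types that share arrays.

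In the list for the stem cell transcription factor circuit, 7 of 11 tested genes were higher in LT-HSC and 1 was lower. The median difference was 2.27, beside -0.20 over 9810 genes, of which 18.4% were called higher, 21.5% lower and 39.9% in either direction. Meis1, a homeobox factor, read 12.96 and 13.28 in LT-HSC, against 3.34 to 7.24 elsewhere (8.63 ± 0.40; limma, adjusted p = 8.89e-10). Tal1, a bHLH factor of stem and erythroid cells, differed by 7.01 ± 0.41 and was highest in nucleated erythrocytes at 13.67. Lmo2, the LIM protein that bridges Tal1 and Gata factors, differed by 6.20 ± 0.26. Myb, a progenitor factor, differed by 3.50 ± 0.38. Lyl1 and Gfi1b, also called higher, were highest in B cells (10.605) and in nucleated erythrocytes (9.29). Gata2 was not tested, at 5.71 and 4.75 in LT-HSC. Ikzf1 (Ikaros), a lymphoid regulator, was lower by the fitted difference of -2.15 ± 0.21. Runx1 (-0.18 ± 0.33) and Fli1 (-0.27 ± 0.34), an ETS factor close to Erg, were not called, and Fli1 was highest in granulocytes at 10.24.

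Among other ETS family genes, 3 of 15 were higher in LT-HSC, 3 lower and 9 not called (median -0.06), close to the 18.4% higher and 21.5% lower over all genes. Etv6 (2.27 ± 0.42), Elk3 (2.07 ± 0.58) and Etv3 (1.72 ± 0.24) were higher, though Elk3 was highest in NK cells at 11.905. Spib, a B cell factor, was lower at -2.95 ± 0.49, Ets1, a lymphocyte factor, at -2.78 ± 0.91, and Ets2 at -1.43 ± 0.57. For Mecom, 3 of 7 tested PR domain genes were higher and none lower (median 0.33): Prdm16 (2.19 ± 0.54), a close relative of Mecom, read 6.05 and 4.17 in LT-HSC, and Prdm11 (2.02 ± 0.19) and Prdm2 (2.01 ± 0.26) were the others. Of 6 tested Mecom partners and reported targets 1 was called, higher, beside 39.9% of all genes called in either direction. It was the corepressor Ctbp2, at 8.09 in LT-HSC and 4.90 in the mean of the others (3.18 ± 0.24; limma, adjusted p = 1.94e-07), while Ctbp1 was at -0.04 ± 0.18. Of 6 PAR bZIP and C/EBP relatives of Hlf, Cebpb (3.61 ± 0.41) and Cebpg (1.07 ± 0.42) were higher, Dbp, the circadian PAR bZIP factor, was lower (-2.01 ± 0.28), and Tef (-0.31 ± 0.33) and Nfil3 (-0.05 ± 0.65) were not called. Cebpb was highest in monocytes at 12.31. The shares of 18.4% higher and 21.5% lower over all genes stand beside each of these lists.

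Of the Mllt3 complexes, the super elongation complex and the Dot1l complex, 5 of 16 tested genes were higher in LT-HSC and none lower (median 0.81), beside 18.4% higher and 21.5% lower over all genes. The elongation factor Ell2 (3.04 ± 0.32), the scaffold Aff4 (2.24 ± 0.25), Bcor (1.59 ± 0.26), the histone methyltransferase Dot1l (1.40 ± 0.34) and Kmt2a (1.21 ± 0.34) were the ones called. Of these only Aff4 and Bcor were highest in LT-HSC. Ell2 and Dot1l were highest in nucleated erythrocytes, at 13.865 and 7.805, and Kmt2a in B cells at 9.27. Aff1 (-0.43 ± 0.24) and Ccnt2 (-0.11 ± 0.23) were not called.

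All 7 tested relatives, partners and reported targets of Msi2 were called, 5 higher and 2 lower (median 1.30), beside 39.9% called over all genes. Ikzf2 (3.50 ± 0.61), Tspan3 (3.44 ± 0.32), Smad3 (1.31 ± 0.27), the RNA-binding partner Syncrip (1.30 ± 0.41) and Tgfbr1 (1.15 ± 0.22) were higher than the mean of the other types. Only Ikzf2 and Tspan3 were highest in LT-HSC. Smad3 was highest in NK cells at 11.74, Syncrip in activated CD4 T cells at 11.44 and Tgfbr1 in monocytes at 13.015. Numb, the Notch inhibitor that Musashi proteins are known to repress, read 8.61 and 8.12 in LT-HSC, against 8.96 to 13.82 elsewhere (-2.57 ± 0.21; limma, adjusted p = 4.51e-07). Myc, whose translation Msi2 is reported to raise, read 2.17 and 3.27 in LT-HSC, near the lowest level, and was highest in activated CD8 T cells at 9.47. Msi1, the other Musashi gene, read 2.63 to 2.81 on all arrays.

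Of the Lin28b, let-7 and Hmga genes around Hmga2, 1 of 6 tested was higher in LT-HSC, 1 lower and 4 not called (median -0.46), close to the 18.4% and 21.5% over all genes. Tut4, a terminal uridylyltransferase that acts with Lin28 on let-7 precursors, differed by 3.18 ± 0.73 and Ezh2 by -1.04 ± 0.26. Tut4 was highest in B cells at 11.985, beside 11.885 in LT-HSC. Lin28b, a fetal factor that keeps Hmga2 high by blocking let-7, was not tested, at 3.76 to 4.44 on all arrays and 3.76 and 4.06 in LT-HSC. Lin28a was at 2.66 and 2.71 in LT-HSC and highest in granulocytes, at 9.06 on its highest array.

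**Figure D4:**
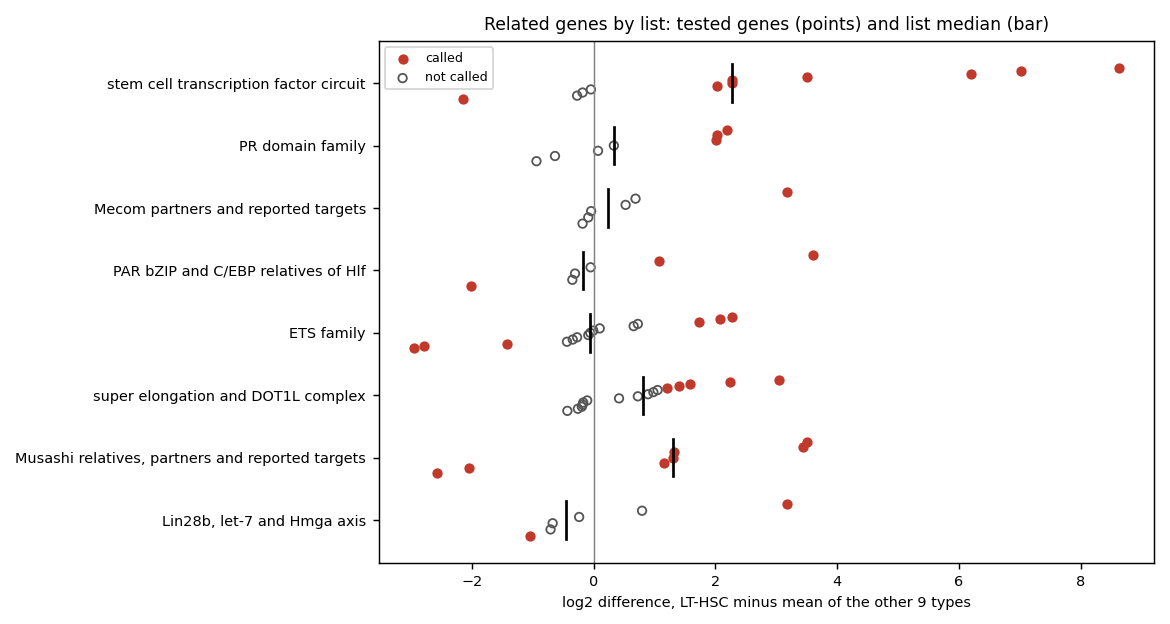
Points are tested genes of 8 lists related to the regulators, with the log2 difference of LT-HSC minus the mean of the other 9 types on the horizontal axis; filled red points passed the test, open points did not, and bars are list medians. The stem cell circuit (median 2.27) and the Musashi list (median 1.30) lie furthest to the right, and the ETS and Hmga lists straddle 0.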

How the data were processed

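RNA of 10 sorted mouse blood cell types was hybridised to Affymetrix Moe430 v 2.0 arrays, 2 arrays a type. The deposited values are log2 expression per probe set, which the authors made with GCRMA per the submitters' processing notes. The GCRMA version is not given in the sources used here, nor is it stated if the 20 arrays were normalised as 1 set. Probe sets were named by the platform annotation, with symbols updated through Entrez identifiers (34945 with 1 symbol, 932 with several, 9160 unlisted). Probe sets above 5 on at least 2 arrays were fitted with limma 3.58.1 in R 4.3.3, with 1 mean per cell type over 20 arrays (10 residual degrees of freedom), and p-values were adjusted by Benjamini-Hochberg over 18726 probe sets. Calls need an adjusted p under 0.05 together with a log2 change no smaller than 1. The test of LT-HSC above each type takes the largest of 9 one-sided p-values. Other tests are two-sided. Lists use 1 probe set a gene, that with the highest mean. Named genes are all members, up to 4 called genes each way and 2 uncalled ones of each list, and the 5 most correlated genes. Kmt2a, Tgfbr1, Lyl1, Gfi1b, Gata2, Lin28a, Lin28b and Msi1 were named after their values were seen. The members and lists were chosen with earlier results of these data known. Nothing says that arrays of a type came from separate sorts, so p-values measure the spread between arrays, and 2 arrays a type limit the precision. On simulated data differences of 1.5, 3 and 5 were called in 58.2%, 85.1% and 98.5% of cases for LT-HSC against the other types, with 7 false calls. The simulation gave the other types 1 common mean and all arrays of a probe set the same spread. The data differ in both, so these rates do not carry over to them. The first naive CD8 array is titled CD48+ but its source reads CD8+, which was used.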

Additional observations from a re-analysis of the deposited data

How the results depend on the processing

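Each of 60 results was recomputed under up to 33 alternatives, which were other filters, scalings, variance models, groups in the fit, array weights, 1 probe set per gene, and each array left out. Raising values below 5 to 5, leaving out both granulocyte arrays, and leaving out an LT-HSC array while keeping the probe sets that pass the filter on all 20 arrays were chosen after seeing the data. The last was needed because Mecom, both Hlf probe sets and 1422851_at of Hmga2 pass the filter through both LT-HSC arrays and otherwise drop out; the single LT-HSC array is then assumed to vary like the other types. Of the alternatives for the 51 member results, 1524 left direction and call as they were, 48 lost a call, 2 gained one and 14 turned the sign of a difference that was not called. The differences of Mecom, Hlf, Erg, Hmga2, 1429205_at of Mllt3 and 1436818_a_at of Msi2 between LT-HSC and the mean of the other types kept their call in each alternative in which they were tested. Without LT-HSC array 1 and array 2 in turn they were 9.86 and 10.33 for Mecom, 6.33 and 6.61 for 1434735_at and 4.72 and 6.58 for 1434736_at of Hlf, and 7.03 and 5.56 for 1422851_at of Hmga2.

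With 1 probe set per gene, fewer features enter, and the counts called were 3912 for LT-HSC against the others, 5466 for nucleated erythrocytes, 5452 for lymphoid against myeloid types, 3250 and 2947 for activation in CD4 and CD8 T cells, 359 for LT-HSC above each type and 8844 for the mature types. The count of LT-HSC above each type ranged from 137 (without LT-HSC array 1; 185 without array 2) to 729 when 1 array was left out, but was 568 and 609 without these arrays on the probe sets kept from all 20 arrays. The count for the difference between the activation effects was 58 to 122 with 1 array left out, 34 with only the groups compared and 174 with values below 5 raised to 5, against 96, and 1051 probe sets had an unadjusted p under 0.05 in limma. The cause of the other shifts was not tested.

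Over 45 pairs of cell types the correlation of deviations between arrays of equal number lay between -0.239 and 0.174. That range cannot show whether such arrays shared sorts or mice. Array 1 but not array 2 of both naive T cell groups carried Y-linked transcripts. With the replicate block 7153 probe sets were called for LT-HSC against the others, and the activation difference of 1435520_at of Msi2 in CD4 T cells had adjusted p = 0.0525.

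Signs turned for differences near 0 that were not called, the cause not being tested. With 1 array left out, the smallest LT-HSC difference ranged from -0.465 to 0.07 for 1429205_at of Mllt3 (0.06 with arrays centred on their medians), from -0.41 to 0.77 for 1431890_a_at (-0.03 without activated CD4 array 1) and from -0.23 to 0.63 for Erg (-0.03 without granulocyte array 1). The CD4 activation difference ranged from -0.375 to 0.535 for 1429205_at, from -0.68 to 0.21 for 1431890_a_at (0.023 under quantile normalization) and from -0.1 to 0.76 for 1436818_a_at of Msi2, and the CD8 one from -0.56 to 0.15 for 1453622_s_at of Mllt3. The erythrocyte difference of 1436818_a_at was 0.064 under quantile normalization. The order of values below 5 may not be reliable, so differences against such types are limited by background.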
